A study of Manihot esculenta with 9 samples.

Results

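The linker histone H1 genes of cassava (Manihot esculenta) were followed through leaf RNA sequencing of wild-type plants and of a pair of transgenic lines that overexpress one linker histone, named MeH1.2 in the series. They are the 6 genes, of 33033 in the deposited table, that match an Arabidopsis linker histone best, and all 6 passed the filter on low counts. The groups were WT, the wild type, and the lines HOE1 and HOE8, with 3 libraries each. HOE8 carries the number 8 in its sample titles and the number 2 in its genotype label. All plants were untreated seedlings, 2 months old, raised from stem cuttings on MS medium in sterile bottles. For the cultivar, the promoter of the transgene and the number of plants per library, nothing is stated in the labels, and each transgenic group is a single line. The labels do not say which locus carries MeH1.2.

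Linker histones sit where DNA enters and leaves the nucleosome, the spool of core histones H2A, H2B, H3 and H4, and they help to compact chromatin. A globular winged-helix domain binds the nucleosome, and a long basic tail binds the linker DNA. In Arabidopsis, 2 main variants are present in most cells, and a shorter variant, H1.3, is found in guard cells and is induced by drought and low light. Arabidopsis plants that lack H1 show altered DNA methylation of transposable elements.

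Of the 6 genes, 5 have the Arabidopsis H1.2 gene as best match and 1 has H1.3, and no gene of the table has H1.1 as its match. Manes.08G136300 lies on chromosome 8 from 30254598 to 30255861, and Manes.08G136200 lies beside it from 30249619 to 30250714. The gap between the pair is 3883 bases, with 0 genes listed in it. Manes.05G086000 lies on chromosome 5 from 6685959 to 6687104, and Manes.15G036800 on chromosome 15 from 2766081 to 2767196. Manes.01G224200 lies on chromosome 1 from 30979076 to 30979974. The H1.3 match, Manes.01G144600, is also on chromosome 1, from 25655688 to 25656952. The coordinates are those of the deposited table, and the labels name no genome build. The 5 H1.2 matches share their description, winged-helix DNA-binding transcription factor family protein, with other genes, 15 in all, so the description by itself does not identify a linker histone.

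Between 13272047 and 16378389 reads were counted per library. The labels do not say that libraries of a group came from separate plants, so the p-values describe no more than library-to-library spread, part of which may be technical. HOE8 library 1 stood apart: the median chi-square per gene was 1.83 and 2.03 between it and the other libraries of its group, 0.768 between those, and 0.649 to 0.843 within WT and HOE1, where sampling noise alone gives 0.455. Among the linker histone genes, this library was the highest of its group for 5 of 6. WT library 3 was the lowest of its group for 5 of 6. Matches of leaf genes, such as Rubisco activase, were present in all groups, with a summed level of 955 to 987 CPM (reads scaled to a common library size) in WT, 2547 to 2626 in HOE1 and 17545 to 19236 in HOE8, whereas the 1 match of a root endodermis gene had no read in any library. In such bulk samples, fewer cells of a type and less RNA per cell cannot be told apart. Summed levels of gene lists, here and below, were scaled by library totals alone.

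In wild-type leaves the transcript pool of linker histones was led by the H1.3 match. Levels of different genes are compared here as the deposited FPKM, which divides the count by gene length and library total. Manes.01G144600 held 486 ± 27 FPKM in WT (SD, n = 3), Manes.05G086000 228 ± 16, and Manes.08G136300 132 ± 7.4. The other 3 were low, with 20.9 ± 2 for Manes.08G136200, 15.1 ± 0.56 for Manes.15G036800 and 0.78 ± 0.23 for Manes.01G224200. No neighbours in this order overlapped in their WT libraries. By abundance, Manes.01G144600 ranked between 58 and 67 among all genes of a WT library, and Manes.01G224200 between 21323 and 22925. The length behind the FPKM of Manes.08G136200 was 2990 bases, although its locus spans 1096. Across the table, 960 of 29647 genes with reads had a length longer than their locus, and no other linker histone gene did. With the locus span as the length, Manes.08G136200 reached 57.1 ± 5.4 FPKM in WT, which left its place in the order as it was.

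In both transgenic lines the order of the leading genes was different. Manes.08G136300 came first with 3884 ± 93 FPKM in HOE1 and 2779.8 ± 215 in HOE8. Manes.01G144600 followed with 953 ± 29 and 1041 ± 116, and Manes.05G086000 with 226 ± 2.2 and 361 ± 33. The 3 low genes kept their WT order in both lines, and no neighbours in the order overlapped. In HOE1 the deposited values were 27.3 ± 0.94 FPKM for Manes.08G136200 and 25.4 ± 0.29 for Manes.15G036800. The distance between them depends on the doubted length, since with the locus span Manes.08G136200 reached 74.5 ± 2.6 FPKM in HOE1 and 98.2 ± 8.5 in HOE8. Manes.08G136300 was the second most abundant transcript of every HOE1 library by FPKM and ranked 3 or 4 in HOE8, against 642 to 735 in WT.

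**Figure D1:**
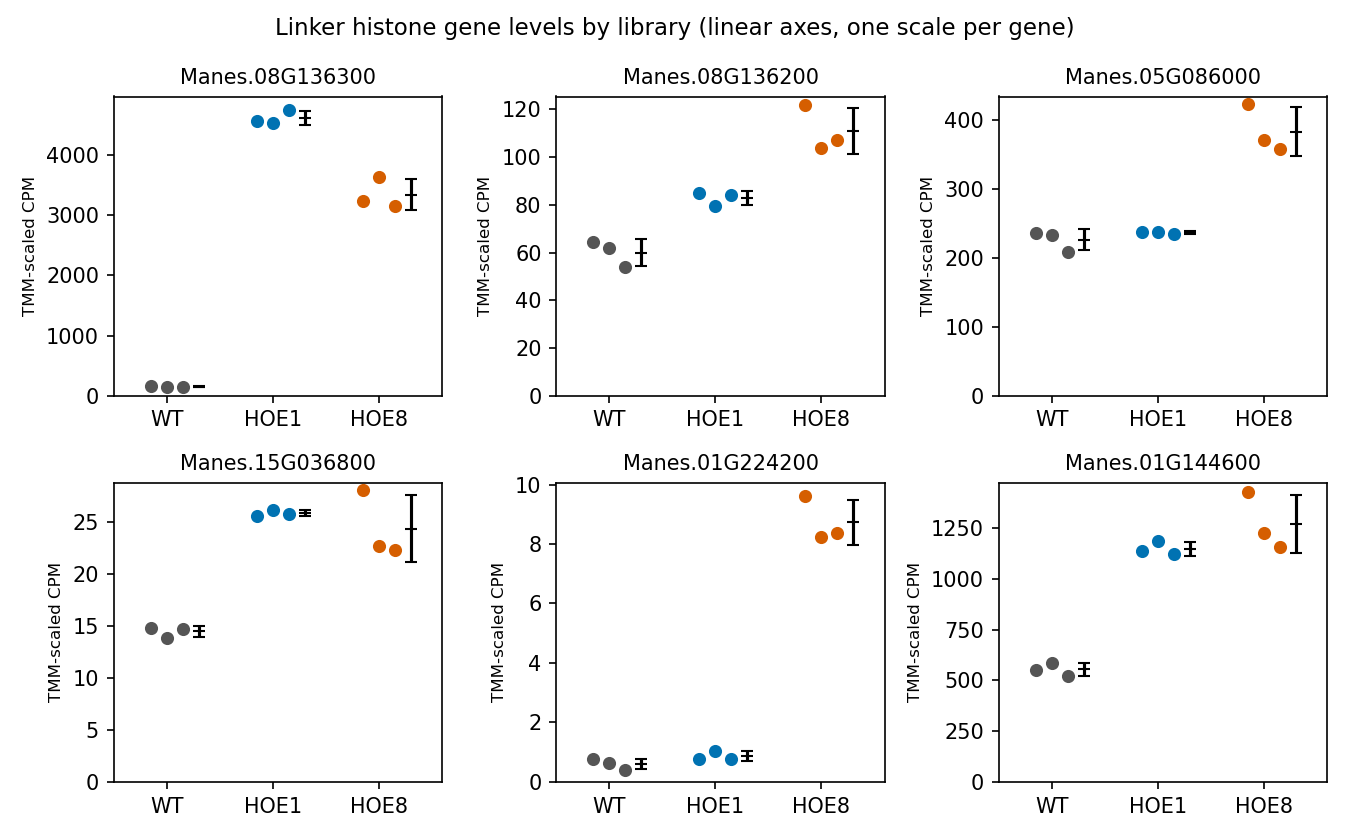
TMM-scaled CPM of each linker histone gene (y axis, linear from 0, 1 scale per gene) in the 3 libraries of WT, HOE1 and HOE8; points are libraries in label order, and bars to their right show mean and SD. Manes.08G136300 was highest in HOE1, and Manes.08G136200, Manes.05G086000 and Manes.01G224200 were highest in HOE8.

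Against wild type, the question was which linker histone transcripts differ in a line made to overexpress 1 of them. In HOE1, 4 of the 6 genes rose and none fell, where 31.7% of all 23434 genes tested were higher, 32.7% lower and 64.4% called in either direction. In HOE8, all 6 rose, where 33.7% of genes were higher, 38.2% lower and 71.9% called in either direction. The same 4 genes rose in both lines, against 18.9% of all genes. These were Manes.08G136300, Manes.08G136200, Manes.15G036800 and Manes.01G144600. A rise of at least 2-fold was found for 2 genes in HOE1 and 3 in HOE8, where 8.5% and 15.3% of genes rose so far. The median log2 fold change of the 6 was 0.69 in HOE1 and 1.04 in HOE8, against 0 and -0.05 over all genes. The lines share their WT libraries, so the counts are not independent of each other.

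Manes.08G136300, an H1.2 match, had the largest rise of the 6 genes in both lines. Whether it is the gene named MeH1.2 is not stated in the labels. Levels of single genes in this and the following comparisons are CPM scaled between libraries by TMM. This gene measured 154, 152 and 139.6 CPM in WT, against 4567, 4538 and 4746 in HOE1, and 3236, 3643 and 3157 in HOE8. The 3 groups did not overlap, with HOE1 above HOE8 and WT far below both. HOE1 exceeded WT by 4.96 ± 0.07 (SE) on the log2 scale (edgeR adjusted p = 2.5e-11), or 31-fold with a 95% interval from 28 to 34.4. HOE8 exceeded WT 22.5-fold, with an interval from 20.3 to 24.9 (edgeR adjusted p = 1.8e-12). By fitted increase, 20 genes stood above it in HOE1 and 174 in HOE8. It took 0.0145 to 0.0161% of all counted reads in WT, 0.447 to 0.467% in HOE1 and 0.307 to 0.354% in HOE8. The count does not separate reads of the native gene from those of a transgene with the same sequence.

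Manes.01G144600, the match of the stress-inducible H1.3, rose about as far in both lines. It measured 553, 585 and 523 CPM in WT, against 1137, 1189 and 1122 in HOE1, and 1429, 1226 and 1157 in HOE8. Every library of either line lay above every WT library, and the lines overlapped each other. By the edgeR test HOE1 was 2.08-fold above WT (interval 1.85 to 2.32, adjusted p = 4.1e-07) and HOE8 2.29-fold (interval 2.05 to 2.57, adjusted p = 6.8e-08). In absolute terms this gene gained 596 CPM in HOE1 and 717 in HOE8, which is 13.3% and 22.4% of the gain of Manes.08G136300. None of the other 4 genes gained more than 4.93% of it in either line.

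Manes.08G136200, the neighbour of Manes.08G136300, rose in steps across the groups. Its libraries stood at 64.3, 62 and 53.8 CPM in WT, against 84.9, 79.7 and 84.2 in HOE1, and 122, 104 and 107 in HOE8. All 3 groups were apart, but in another order than for its neighbour, since here HOE8 lay above HOE1. The rise was 1.38-fold in HOE1 (interval 1.22 to 1.56, edgeR adjusted p = 0.00041) and 1.84-fold in HOE8 (interval 1.63 to 2.09, adjusted p = 1.9e-06). Its gain of 22.9 CPM in HOE1 was 0.512% of the gain of Manes.08G136300, and its gain of 50.7 CPM in HOE8 was 1.59%. Whether reads of one copy were counted for the other was not tested.

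Manes.15G036800, an H1.2 match of low level, rose by nearly the same amount in both lines. It had 14.8, 13.9 and 14.7 CPM in WT, against 25.6, 26.2 and 25.8 in HOE1, and 28.1, 22.7 and 22.3 in HOE8. The WT libraries lay below all others, and the HOE8 libraries fell on both sides of HOE1. By the edgeR test the rise on the log2 scale was 0.84 ± 0.09 (SE) for HOE1 (adjusted p = 1.5e-05) and 0.75 ± 0.09 for HOE8 (adjusted p = 2.6e-05). At 1 end, 14 bases are shared with the next gene, Manes.15G036900, described below.

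The remaining pair rose in HOE8. Manes.05G086000, the second most abundant linker histone gene of WT leaves, had 236, 233 and 208 CPM in WT, against 238, 238 and 234 in HOE1, and 423, 371 and 357 in HOE8. WT and HOE1 overlapped, and every HOE8 library stood above them. In HOE8 the gene rose 1.7-fold (interval 1.53 to 1.89, edgeR adjusted p = 2e-06), and in HOE1 the log2 fold change was 0.07 with an interval from -0.09 to 0.22 (adjusted p = 0.41). Scaling by library totals turned the sign of that HOE1 value, to -0.01.

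Manes.01G224200 was close to silent outside HOE8. It had 11, 10 and 7 reads in the WT libraries, 11, 16 and 12 in HOE1, and 127, 106 and 114 in HOE8, or 0.604 ± 0.18, 0.867 ± 0.16 and 8.73 ± 0.76 CPM. It met the cutoff of the count filter in 1 of 3 WT libraries and in all libraries of both lines. HOE8 lay 14.5-fold above WT (interval 10.6 to 19.8, edgeR adjusted p = 1.9e-08). The HOE1 value was 1.45-fold with an interval from 0.934 to 2.25 (adjusted p = 0.16), although the libraries of WT and HOE1 did not overlap. Groups without overlap were found for 5 of 6 linker histone genes in HOE1 and 6 of 6 in HOE8, and for 73.3% and 73.7% of all genes.

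**Figure D2:**
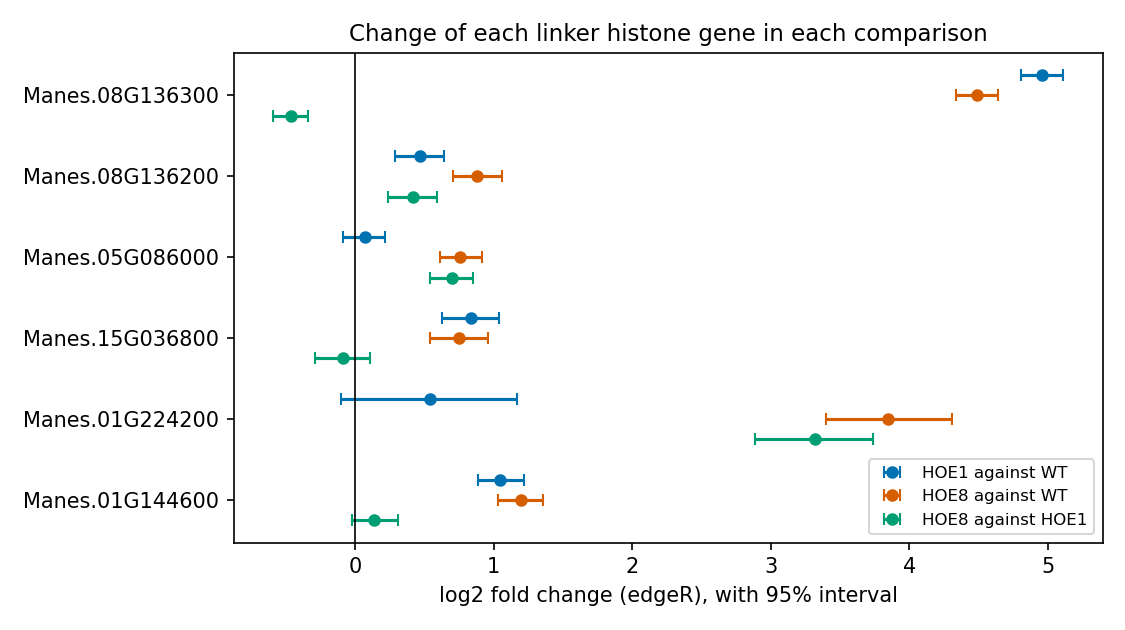
Fitted log2 fold change (x axis) of each linker histone gene with its 95% interval, for HOE1 against WT, HOE8 against WT and HOE8 against HOE1. The intervals of Manes.05G086000 and Manes.01G224200 in HOE1 include 0, as do those of Manes.15G036800 and Manes.01G144600 between the lines.

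HOE8 was then set against HOE1, which asks where the lines differ from each other. Of the 6 genes, 3 were higher in HOE8 and 1 lower, where 32.7% of all genes were higher and 33.8% lower. Libraries of the lines did not overlap for 4 of the 6, and for 70.1% of all genes. Manes.08G136300 was the lower one, at 0.725 times the HOE1 level (interval 0.664 to 0.791, edgeR adjusted p = 3e-05). The higher ones were Manes.01G224200 with 9.96-fold (interval 7.41 to 13.4, adjusted p = 5.8e-08), Manes.05G086000 with 1.62-fold (interval 1.46 to 1.8, adjusted p = 5.8e-06) and Manes.08G136200 with 1.34-fold (interval 1.18 to 1.51, adjusted p = 0.00079). Compared with HOE1, HOE8 had less of Manes.08G136300 and more of these 3. WT had the lowest mean of each, with 149 CPM for Manes.08G136300, 60 for Manes.08G136200, 226 for Manes.05G086000 and 0.604 for Manes.01G224200. Whether these levels depend on each other was not tested.

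No difference between the lines was called for the H1.3 match Manes.01G144600, with a log2 fold change of 0.14 and an interval from -0.02 to 0.31 (edgeR adjusted p = 0.1). Single choices moved that call: it passed with upper quartile scaling (0.22, adjusted p = 0.022) and without HOE8 library 3 (0.21, adjusted p = 0.024), within a range of adjusted p from 0.022 to 0.31 over all alternatives. For Manes.15G036800 the value was -0.09 with an interval from -0.29 to 0.11 (adjusted p = 0.41). It became -0.2 (adjusted p = 0.022) without HOE8 library 1, within a range from 0.022 to 0.89.

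Summed over the 6 genes, the linker histone pool came to 883 ± 49 FPKM in WT, 5117 ± 71 in HOE1 and 4252 ± 245 in HOE8 (SD, n = 3). These sums use FPKM without TMM scaling and are given as a description with no test. The pool of HOE1 was 5.8 times and that of HOE8 4.82 times the WT pool. Manes.08G136300 made up 15 ± 0.25% of the pool in WT, 75.9 ± 0.84% in HOE1 and 65.4 ± 3.1% in HOE8. The share of Manes.01G144600 was 55 ± 0.95% in WT, 18.6 ± 0.75% in HOE1 and 24.5 ± 2.3% in HOE8, so the gene whose level rose about 2-fold held a smaller part of a larger pool. Manes.05G086000 went from 25.8 ± 0.59% to 4.41 ± 0.1% and 8.5 ± 0.67%.

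Without Manes.08G136300 the rest of the pool was also larger in the lines. It measured 767, 783 and 703 FPKM in the WT libraries, 1225, 1266 and 1207 in HOE1, and 1647, 1418 and 1351 in HOE8. The 3 groups did not overlap. HOE1 stood at 1.64 times and HOE8 at 1.96 times WT. Within this rest, the share of Manes.01G144600 was 64.8 ± 0.94% in WT, 77.3 ± 0.47% in HOE1 and 70.7 ± 0.45% in HOE8, and that of Manes.05G086000 was 30.3 ± 0.77%, 18.3 ± 0.33% and 24.6 ± 0.36%.

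**Figure D3:**
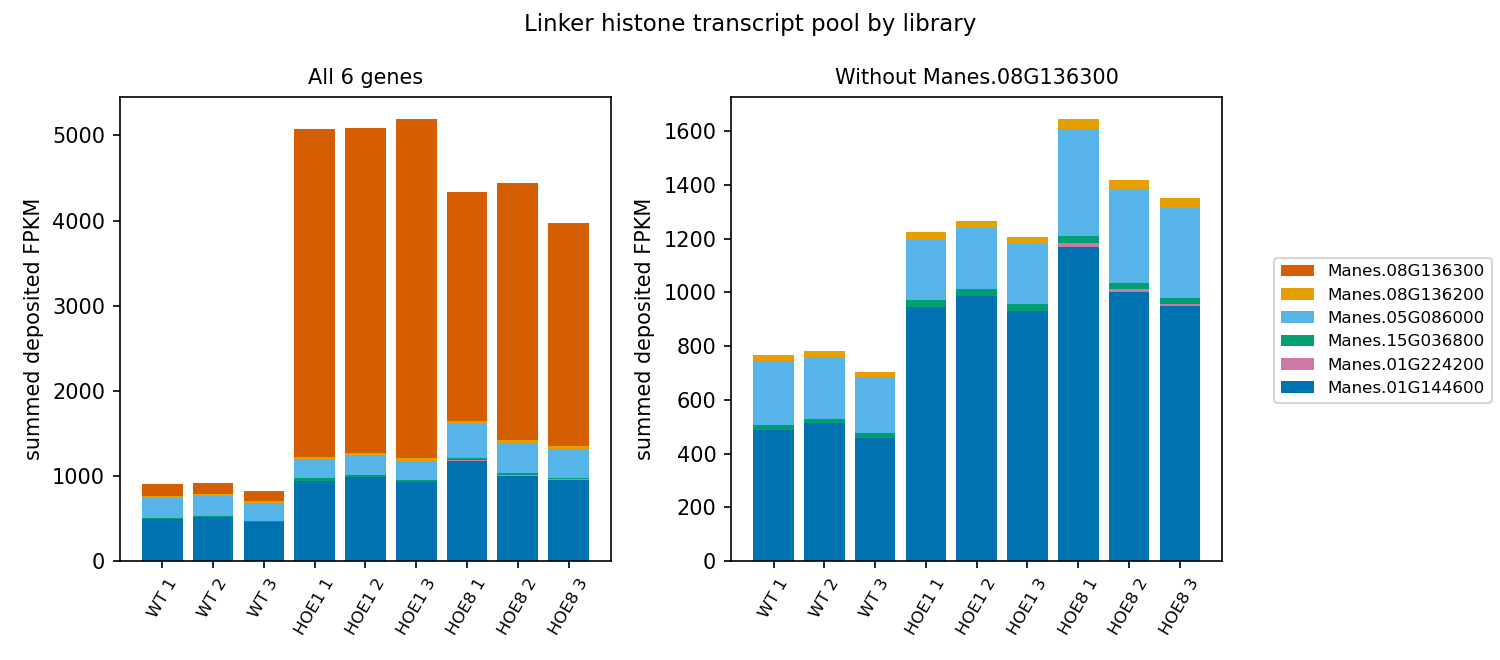
Summed deposited FPKM (y axis) of the linker histone genes in each library, with colours for genes, for all 6 genes (left) and without Manes.08G136300 (right, another scale). The sums over all genes lie between 827 and 918 in WT and between 3976 and 5198 in the lines, and without Manes.08G136300 between 703 and 783 and between 1207 and 1647.

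Linker histones act on nucleosomes, so their transcripts were set beside those of the core histones, a list of 53 genes chosen by description, of which 46 were tested. The description also takes in proteins with a histone fold that are not core histones, such as Manes.03G141500, a match of the transcription factor LEC1, and Manes.01G176800 and Manes.14G045100. None of these 3 was tested, and none had more than 17 reads in a group. Over all genes, 31.7% were higher and 32.7% lower in HOE1, and 33.7% and 38.2% in HOE8. Of the 46 core histone genes, 5 were higher and 9 lower in HOE1, with a median log2 fold change of -0.06. In HOE8, 39 of them were higher and 4 lower, with a median of 1.12 (37 and 4 without HOE8 library 1). The genes called higher in both lines with the widest change were Manes.05G083000, an H2A (0.416 ± 0.2 CPM in WT, 1.07 ± 0.21 in HOE1 and 7.12 ± 0.66 in HOE8), Manes.05G070300, a histone superfamily protein (0.787 ± 0.16, 1.42 ± 0.34 and 15.9 ± 2.2), and Manes.06G050200, another H2A (0.129 ± 0.071, 0.539 ± 0.16 and 0.985 ± 0.29). Their WT counts were 20, 37 and 6 reads over the group. The summed FPKM of linker histones was 0.356 ± 0.012 times that of core histones in WT, 2.31 ± 0.017 times in HOE1 and 1.28 ± 0.09 times in HOE8. Without Manes.08G136300 it was 30.3 ± 1% of the core sum in WT, 55.7 ± 1.6% in HOE1 and 44.1 ± 1.2% in HOE8. These ratios are of RNA and say nothing of protein.

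Dividing cells, in which core histones are made for new chromatin, were followed with matches of cyclins, cyclin-dependent kinases and replication proteins. In HOE8, 17 of 18 tested were higher and 1 lower, with a median log2 fold change of 2.63 (16 and 1 without HOE8 library 1), and their summed level was 125 to 132 CPM against 41 to 43.1 in WT. In HOE1, 6 were higher and 2 lower, with a median log2 fold change of 0.71, and their summed level was 33 to 36.7 CPM. The sum was thus below WT although the median was above 0, and it includes Manes.01G227600, given below. Between the lines, 18 of 18 were higher in HOE8. Manes.18G081100, a match of the mitotic cyclin CYCA1;1, went from 0.194 ± 0.071 CPM in WT to 0.821 ± 0.14 in HOE1 and 5.17 ± 1 in HOE8, and Manes.18G001200, a match of the mitotic kinase CDKB2;2, from 0.303 ± 0.15 to 0.742 ± 0.22 and 5.67 ± 1.4. Manes.01G227600, a match of the replication helicase subunit MCM7, fell from 10.8 ± 1.1 CPM to 0.836 ± 0.6 and 5.27 ± 1.1. The other MCM7 match, Manes.05G003100, had 2.63 ± 0.33, 3.27 ± 0.48 and 12.2 ± 0.49 CPM and was called higher in HOE8. All 6 linker histone genes were called higher in HOE8, the line with the higher summed level of these markers, as were 33.7% of all genes. In HOE1, Manes.05G086000 and Manes.01G224200 were not called, nor were 10 of the 18 markers. There, Manes.18G081100 and Manes.18G001200 were called higher and Manes.01G227600 lower. The part of dividing cells in the linker histone changes was not tested.

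Other tissue and time markers differed between the groups too. All 4 shoot meristem matches were higher in both lines, and their summed level was 2.56 to 3.66 CPM in WT, 11.1 to 12.4 in HOE1 and 32.3 to 34.4 in HOE8. For xylem, 4 of 7 tested matches were lower in HOE1 and 7 higher in HOE8 (8 of 8 tested without HOE8 library 1), with sums of 28.9 to 29.4, 16.9 to 19.2 and 50.2 to 52.6 CPM. The 3 phloem matches summed to 269.6 to 288, 179 to 188 and 69.5 to 72.4 CPM. In HOE1, 1 of them was lower and none higher, and in HOE8 1 was lower and 2 higher (1 and 1 without HOE8 library 1). The matches of SAG12, a protease gene of senescing leaves, summed to 524 to 536 CPM in WT, 35.6 to 41.7 in HOE1 and 0.527 to 0.662 in HOE8. Of 13 such matches, 1 was tested, and it was lower in both lines. Among the 6 leaf matches, 4 were higher and 1 lower in HOE1, and 6 were higher in HOE8. Of 17 circadian clock matches, 12 were higher and 1 lower in HOE1, and 7 higher and 9 lower in HOE8 (7 and 8 without HOE8 library 1), and the labels give no hour of collection. Manes.01G239000, a match of LHY, a clock gene that peaks at dawn in Arabidopsis, had 5.33 ± 0.5 CPM in WT, 8.62 ± 0.25 in HOE1 and 1252 ± 160 in HOE8. The part of tissue makeup and of collection time in the linker histone changes was not tested.

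Other chromatin proteins were read beside the linker histones. GH1-domain proteins other than H1, which share its globular domain, had 5 of 11 tested genes higher and 2 lower in HOE1, and 6 higher and 2 lower in HOE8, with medians of 0.23 and 0.67 on the log2 scale. Manes.02G076600, an HMGA match, rose from 18.8 ± 2.1 CPM to 31.8 ± 0.69 and 36.8 ± 6.6. Manes.17G080900, a second HMGA match, rose from 19.8 ± 2.6 to 25.1 ± 2.1 and 31.8 ± 2.4. Manes.12G115100, a match of the telomere repeat binding factor TRB2, rose from 17.7 ± 1.1 CPM to 20.7 ± 2 and 43.2 ± 3.2. The HMGA matches Manes.01G118200 and Manes.15G131700 were called higher in HOE8 and not called in HOE1. Both matches of the related factor TRB1 were called lower in both lines. Their log2 values were -0.25 and -0.26 for Manes.10G082400, and -0.37 and -0.58 for Manes.S014100. Of 7 HMGB genes, whose proteins bind linker DNA, 2 were higher and none lower in HOE1, and 5 were higher and none lower in HOE8. Their medians were 0.38 and 0.66. Over all genes, 31.7% were higher and 32.7% lower in HOE1, and 33.7% and 38.2% in HOE8. Both matches of HMGB2, the most abundant HMGB genes, were not called in HOE1 and were higher in HOE8. Their log2 values were -0.12 and 0.65 for Manes.05G124100, and -0.1 and 0.66 for Manes.18G003900.

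Histone chaperones carry histones to and from DNA. Of 19 tested, 3 were higher and 9 lower in HOE1, where 32.7% of all genes were lower, and 3 higher and 7 lower in HOE8, where 38.2% were. Their medians were -0.27 and -0.09, and between the lines 8 were higher and 4 lower in HOE8. Their summed level, scaled by library totals, was 1401 to 1416 CPM in WT, 1339 to 1352 in HOE1 and 1506 to 1680 in HOE8. The order of WT and HOE1 in this sum depends on the scaling. The TMM factors, not applied to it, were 1.04 to 1.048 in WT and 0.9847 to 0.9861 in HOE1. Manes.06G093700, a match of the chaperone NRP2, stood at 124 ± 4 CPM in WT and 49 ± 2.8 in HOE8, and fell by 0.27 and by 1.34 in HOE1 and HOE8 on the log2 scale. Manes.05G060600, a match of MSI1, a subunit of the CAF-1 chaperone, fell from 30.5 ± 2.8 CPM to 14.7 ± 0.64 and 17 ± 1.2. The more abundant MSI1 match, Manes.11G162700, fell by 0.25 in HOE1 on the log2 scale and had a value of -0.09 in HOE8 (edgeR adjusted p = 0.22). Manes.16G100800, a match of the nucleosome assembly protein NAP1;2, rose from 332 ± 1.9 CPM to 447 ± 14 and 772 ± 72. The other 3 matches of NAP1;2 did not share this rise in HOE8: on the log2 scale Manes.11G025300 fell by 1.19, Manes.03G035300 fell by 0.2, and Manes.04G140600 had a value of -0.18 (edgeR adjusted p = 0.069). Of 8 tested genes of DNA methylation, a mark altered in Arabidopsis without H1, 3 were higher and 1 lower in HOE1. In HOE8, 5 were higher and 1 lower (3 and 1 without HOE8 library 1). Over all genes, 31.7% were higher in HOE1 and 33.7% in HOE8. The list summed to 108 to 116 CPM in WT, 108 to 114 in HOE1 and 112 to 123 in HOE8. Its most abundant member, Manes.04G093100, a match of SUVH4, fell from 67.5 ± 0.87 CPM to 60 ± 1.8 and 56.1 ± 2.3. Manes.01G134600, a match of DDM1, the remodeller that gives methyltransferases access to H1-bound DNA in Arabidopsis, rose from 1.6 ± 0.35 CPM to 3.26 ± 0.23 and 6.45 ± 1.1. The second DDM1 match, Manes.02G092800, had 8.22 ± 1.2, 8.96 ± 0.17 and 8.54 ± 0.41 CPM and was called in neither line. Manes.13G155300, a match of the maintenance methyltransferase MET1, rose from 10.3 ± 1.9 CPM to 15.3 ± 0.78 and 14.9 ± 2.6. The second MET1 match, Manes.13G119400, had 12 ± 1, 14 ± 1.6 and 11.2 ± 1 CPM and was called in neither line. Manes.15G149300, a match of DRM2, which methylates new sites, rose from 1.53 ± 0.058 CPM to 2.42 ± 0.45 and 2.34 ± 0.22. The largest change of the list in HOE8 was that of Manes.03G089100, a match of chromomethylase 3, with a log2 fold change of 2.43. It had 3.21 ± 0.14, 3.99 ± 0.39 and 17.4 ± 1.3 CPM and was not called in HOE1.

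**Figure D4:**
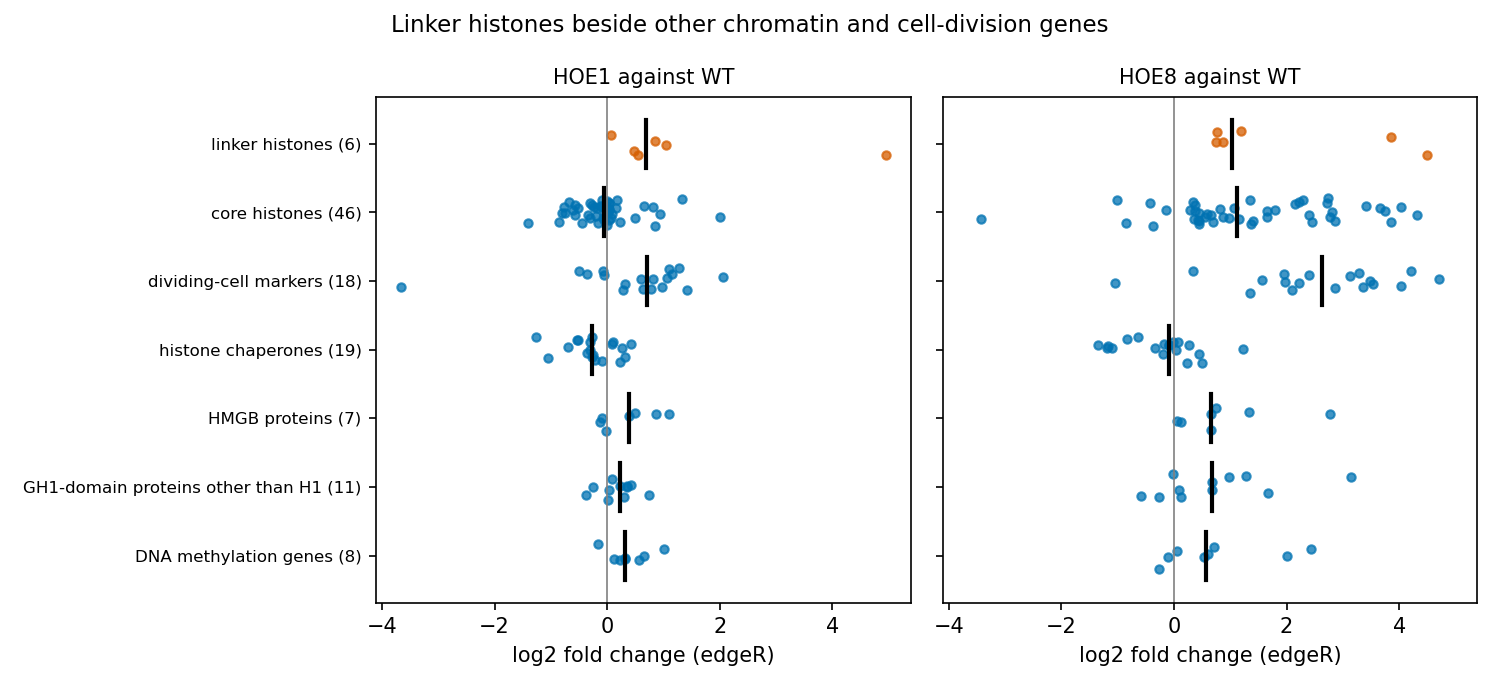
Log2 fold change (x axis, same scale in both panels) of each tested gene of 7 groups, in HOE1 (left) and HOE8 (right) against WT; points are genes, shifted vertically at random for sight, and black bars are medians. Core histones have a median of -0.06 in HOE1 and 1.12 in HOE8, and dividing-cell markers reach 2.63 in HOE8.

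The genes next to each linker histone gene were read for signs of a wider change at the locus. Manes.08G136400, an oxidoreductase gene which overlaps Manes.08G136300 by 148 bases, went from 25.2 ± 1.1 CPM in WT to 37.6 ± 1.6 in HOE1 and 24.4 ± 3.9 in HOE8. It rose in HOE1 (log2 fold change 0.58, edgeR adjusted p = 0.00041) and in HOE8 had a value of -0.05 (adjusted p = 0.7). The 22.5-fold rise of Manes.08G136300 in HOE8 was thus not shared by the gene that overlaps it. Reads from the 148 shared bases cannot be assigned to either gene. Whether the rise lies at this locus was not tested, since the count does not separate a transgene of the same sequence. Manes.08G136100, on the other side of the pair, was not tested, with 8 reads in all of WT, 8 in HOE1 and 1 in HOE8. Manes.01G144500, a match of the vascular regulator VND1, lies 2055 bases before the H1.3 match and fell by 2.17 (HOE1) and by 1.31 (HOE8) in log2 units, and Manes.01G144700, a Rossmann-fold protein on the other side, fell by 1.15 and by 0.72. The rise of Manes.01G144600 thus lay between genes that fell in both lines.

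At other loci some neighbours rose where the linker histone gene did. Over all genes, 31.7% were higher in HOE1 and 33.7% in HOE8. Manes.15G036900, an ATP-binding protein of the P-loop family that overlaps Manes.15G036800 by 14 bases, rose by 0.82 and 0.79 log2 units in the lines HOE1 and HOE8, close to the 0.84 and 0.75 of the linker histone gene. Reads from the shared bases cannot be assigned to either gene. On its other side, the ribosomal protein gene Manes.15G036700 fell by 0.26 in HOE1 and had a value of 0.09 in HOE8 (adjusted p = 0.33). Manes.05G085900, a ribosomal protein S19 gene lying 9246 bases before Manes.05G086000, rose by 0.67 in HOE8 and had a value of 0.03 in HOE1 (edgeR adjusted p = 0.79). Manes.05G086100, which starts 61 bases after Manes.05G086000 and has no description, rose by 1.26 in HOE8, from 29 to 59 reads over the group. Manes.01G224100, before Manes.01G224200, rose in both lines, by 0.78 and 0.92. Manes.01G224200 itself was not called in HOE1 and rose by 3.85 in HOE8, and Manes.01G224300 after it had 0, 1 and 0 reads.

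**Figure D5:**
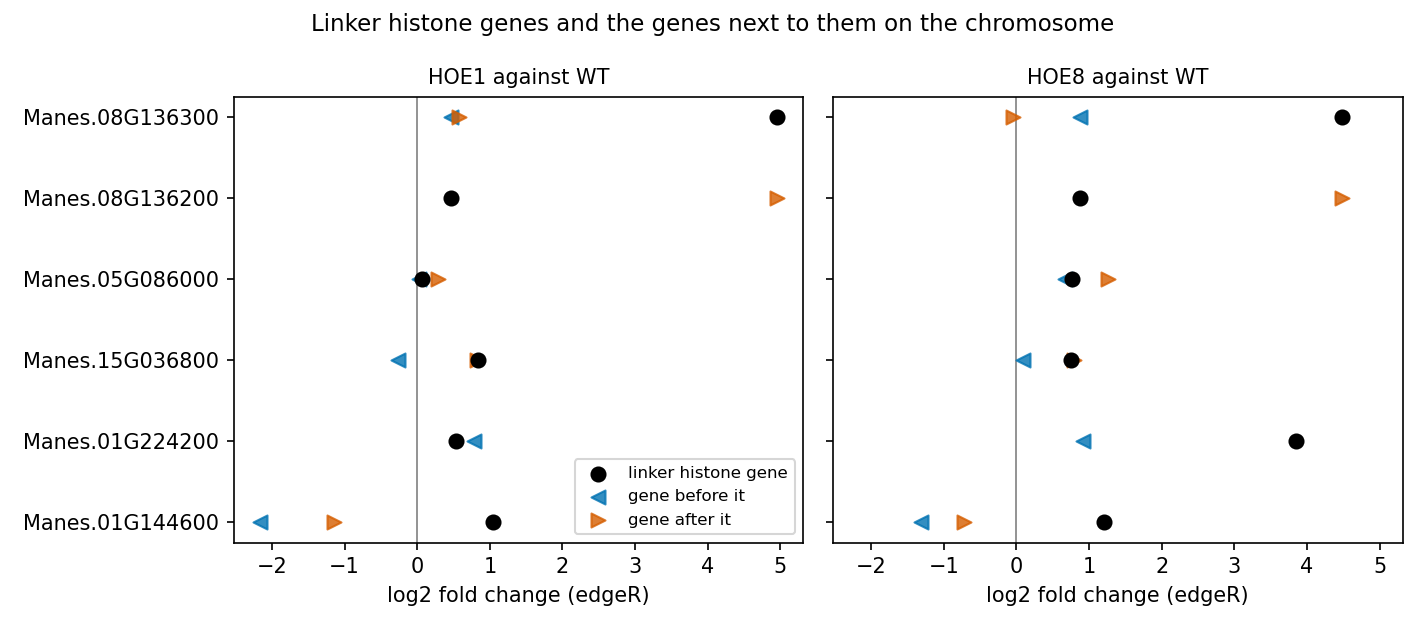
Log2 fold change (x axis, same scale in both panels) of each linker histone gene (black circles) and of the genes directly before (left triangles) and after it (right triangles), in HOE1 and HOE8 against WT. Neighbours that were not tested are missing, and Manes.08G136300 and Manes.08G136200 are each other's neighbour.

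Genes with the most similar pattern over the 9 libraries were found by the root mean square difference of centred log2 (CPM + 1) profiles, among 21954 candidates. This difference grows with the size of a change, so it is not comparable between genes that change by unlike amounts. Adding 1 CPM also flattens the changes of genes with low counts. For Manes.08G136300 the nearest was Manes.08G109700, a neutral invertase gene, with a difference of 0.364. The invertase gene had 3.16 ± 0.61 CPM in WT, 78.7 ± 2.9 in HOE1 and 95.7 ± 0.46 in HOE8. Its log2 fold changes against WT were 4.63 in HOE1 and 4.92 in HOE8, beside 4.96 and 4.49 for Manes.08G136300. Next were Manes.10G149500, a beta glucosidase (0.772), and Manes.12G140800, a cytochrome P450 (0.804). The nearest genes of the other 5 differed from them by 0.044 to 0.123. For Manes.01G144600 these were Manes.11G162900, a calcium-binding EF-hand protein (0.049), Manes.04G045700, whose match is a suppressor of npr1-1 constitutive 4 (0.051), and Manes.10G143800, a RING/U-box protein (0.054). For Manes.05G086000 they were Manes.08G098700, a photosystem II protein (0.064), Manes.13G150900, a folic acid binding transferase (0.064), and Manes.15G152300, a SURF2 protein (0.065).

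Manes.08G136200 was nearest to Manes.03G123700, a translation initiation factor of the SUI1 family (0.061), Manes.S092400, a zinc-binding oxidoreductase (0.066), and Manes.05G065700, an ATP synthase subunit (0.07). Manes.05G065700 was low, with 44 reads over the WT group. Its log2 fold changes were 0.65 in HOE1 and 1.4 in HOE8, beside 0.47 and 0.88 for Manes.08G136200. Manes.15G036800 was nearest to Manes.06G179100, a tetratricopeptide repeat protein (0.044), Manes.01G247300, whose match is a component of an abscisic acid receptor (0.055), and Manes.11G043200, a protein kinase (0.06). Manes.01G224200 was nearest to Manes.15G148400, a lipid-transfer family gene (0.104), Manes.18G038600, a match of heat shock factor B4 (0.122), and Manes.09G100600, a heme-binding SOUL protein (0.123). Among themselves, the linker histone genes were most alike in Manes.08G136200 and Manes.05G086000 (0.17) and least alike in Manes.08G136300 and Manes.05G086000 (2.083).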

How the data were processed

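For every gene, the authors deposited a read count and an FPKM value from each library, both used here. The submitters' processing notes list HISAT2 2.0.4 and StringTie 1.3.0, without their roles. Build, annotation, counting settings and strand use were not given in the sources used here. Dividing the deposited count by length and by total gave the authors' FPKM to within 1% for all 201737 values compared. Groups and replicate numbers come from the sample titles.

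For tests of the counts, edgeR 4.0.16 was used with limma 3.58.1 under R 4.3.3. The low-count filter (minimum count 10) kept 23434 genes and dropped 9599. TMM set the scaling, and a single quasi-likelihood fit held all 9 libraries. Summed levels of gene lists were scaled by library totals, without TMM. Tests were two-sided, p-values were adjusted by Benjamini and Hochberg's method across the genes kept, and 0.05 was the threshold. Intervals are 95% intervals of the fitted change. The procedure was tested on simulated data. Alternatives were other scalings, no filter, a replicate block, fits of 2 groups, each library left out, and DESeq2 1.42.0.

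The linker histone genes and the gene lists were chosen with earlier results of these data known. Lists were taken by best Arabidopsis match, and core histones by description. Besides the members, the rule names the 3 genes nearest to each in pattern (mean of at least 1 CPM), the genes next to each on the chromosome, and up to 3 genes per list that were called the same way in both lines with the largest mean change. For some named genes, other matches were added after their values were seen, and so was Manes.03G089100. For the rest, other matches may exist and are not given. None of the 33033 identifiers was found in the separate gene table for the species, so it was not used.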

Additional observations from a re-analysis of the deposited data

Results flagged for a closer look

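The lines differed from each other, by the edgeR test of HOE8 against HOE1, for 4 of the 6 linker histone genes, and 66.5% of all genes differed in the same test. On the log2 scale the difference was -0.46 for Manes.08G136300, 0.42 for Manes.08G136200, 0.7 for Manes.05G086000 and 3.32 for Manes.01G224200. In each of these the 3 libraries of HOE8 lay on 1 side of the 3 libraries of HOE1.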

How the results depend on the processing

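The linker histone genes called stayed at 4 of 6 in HOE1 and 6 of 6 in HOE8 against WT under all alternatives tried, which were other scalings, no count filter, DESeq2, fits of 2 groups, the replicate block and each library left out. Between the lines the count was 4 or 5. Of 234 single fold changes, 230 kept their sign and call, 3 passed the threshold that they had missed, all between the lines and given with their values in the text, and 1 changed sign: Manes.05G086000 in HOE1, to -0.01 with scaling by library totals. That scaling moved the median of all genes by -0.08 in HOE1 and by -0.1 in HOE8. Leaving out 1 library gave 13927 to 14092 called genes in HOE1, 16101 to 17294 in HOE8 and 14498 to 15785 between the lines. With no count filter, 15290, 17574 and 16054 genes were called.

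The labels number libraries 1 to 3 in each group. With the replicate block, 14843, 16624 and 15298 genes were called, and the linker histone calls were 4, 6 and 4. The deviations of same-numbered libraries correlated by -0.03 to 0.04 in 9 pairs, and 3 of 9 libraries were most like their own number, so the numbers were not taken as pairs. The share of Manes.08G136300 in the WT pool was 14.4% with gene lengths no longer than the locus, an alternative chosen after seeing the data. Counts of 7 to 16 reads limit Manes.01G224200 in WT and HOE1.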

Other observations

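Of 8 genes that lie next to a linker histone gene and have an Arabidopsis match, 2 matched the locus whose number comes directly beside a linker histone locus in Arabidopsis. Manes.15G036900, beside Manes.15G036800, matched AT1G06750, next in number to the H1.1 locus AT1G06760. Manes.01G144500, beside Manes.01G144600, matched AT2G18060, next in number to the H1.3 locus AT2G18050. The best match of Manes.15G036800 itself was H1.2.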
